A study of Homo sapiens with 8 samples.

Results

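The messenger RNA levels of enzymes that make nucleotides, and of enzymes that supply them with folate-bound carbon units, were followed in CUTLL1 cells treated with a gamma-secretase inhibitor, a glucocorticoid or both. The group holds 35 listed genes of purine, pyrimidine, folate, serine and salvage metabolism. Of these, 33 were measured, out of 19775 genes on the arrays, each read from its brightest probe set by mean over the 8 arrays. UCK2 and ADSS2 were not analysed here, because no probe set named either gene alone in the annotation supplied. The measured members were sorted by role into 6 enzymes of purine synthesis de novo, 2 of phosphoribosyl pyrophosphate supply, 3 that turn inosine monophosphate into guanine nucleotides, 4 of purine salvage, 5 of pyrimidine synthesis de novo, 6 of thymidylate and deoxynucleotide supply, 2 ribonucleotide kinases and 5 of folate and serine metabolism.

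CUTLL1 is a line of T-cell acute lymphoblastic leukemia (T-ALL) that carries a translocation activating NOTCH1, so all groups stand for cells of a single leukemia. The groups were PF-03084014 at 1 microM, dexamethasone at 1 microM, both compounds together at 1 microM each, and DMSO as the vehicle, each for 48 h and each with 2 arrays. PF-03084014 blocks gamma-secretase, the protease that releases the active part of NOTCH receptors, and dexamethasone activates the glucocorticoid receptor. Each treatment has a first and a second replica in the labels, which do not say whether these were separate cultures. The p-values therefore reflect the spread between these samples alone, and that spread may be technical.

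Cells build purines stepwise on phosphoribosyl pyrophosphate up to inosine monophosphate (IMP), from which adenine and guanine nucleotides branch. Pyrimidines are assembled as a ring first and joined to the sugar afterwards, and thymidylate is then made from deoxyuridylate. Serine hydroxymethyltransferases and the MTHFD enzymes pass carbon units from serine to folate, which purine and thymidylate synthesis both use. Dividing lymphoid cells depend on these routes, and antifolates, thiopurines and nucleoside analogues used in leukemia act on them.

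Probe-set intensities on a linear scale were floored at 16 and compared as log2 values with limma across all 19775 genes. The words rose and fell are kept for genes whose p, after Benjamini-Hochberg adjustment over all genes, was under 0.05. Log2 differences are given with the standard error of the fit. The 3 comparisons with DMSO share the same 2 DMSO arrays. Array medians were 61.8 to 63.9 except on combination replicate 2, at 76.3, and replicates correlated at 0.98 in the combination and at 0.991 to 0.993 in the other groups. Of 10 NOTCH targets, 7 fell and none rose under PF-03084014, 1 rose and none fell under dexamethasone, and 7 fell and 1 rose under the combination. DTX1, one of them, differed by -2.18 under PF-03084014 and -2.10 under the combination. Of 10 glucocorticoid receptor targets, 2 rose under PF-03084014, 3 under dexamethasone and 7 under the combination, and none fell. TSC22D3, one of them, rose by 3.34 under dexamethasone and 3.84 under the combination. All 12 T-lineage markers had a mean intensity of at least 200, and their summed intensity was 53789 to 58548 on the combination arrays and 46589 to 47735 on the DMSO arrays. In bulk RNA, fewer cells of a type and less RNA per cell cannot be told apart.

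Under the combination, 15 of the 33 enzymes fell and 1 rose against DMSO, while 17 did not pass the test. The background share over all genes was 5.54% for falls and 6.43% for rises, or 12% in either direction. Most members were bright: 30 of them lay at or above the median mean intensity of all genes. Among the 9888 genes at or above that median 9.81% fell, and of those 30 members 14 did. The median log2 difference was -0.36 over the members and 0.063 over all genes. Both combination arrays lay below both DMSO arrays for 24 members and above them for 3, where all genes had 21.5% and 29.1%. Among genes at or above the median mean 31.1% lay below, and the median difference of those genes was 0.0039. Falls were found in 7 of the 8 role groups, and the exception was the pair of ribonucleotide kinases, where 1 rose.

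PF-03084014 alone gave no call among the 33 members, against a background of 0.824% of all genes, 0.475% higher and 0.349% lower. At an unadjusted p under 0.05 there were 14 members (42.4%), where all genes had 13.3%. For 24 members both PF-03084014 arrays lay below both DMSO arrays, a state found in 19.7% of all genes and in 24.4% of the genes at or above the median mean. For 5 members both arrays lay above, against 26.9% of all genes. The member median was -0.16, beside 0.018 over all genes, and it was -0.14 and -0.21 on the single PF-03084014 arrays. Dexamethasone alone gave no call either, against a background of 0.101% (0.086% higher and 0.0152% lower). At an unadjusted p under 0.05 there were 5 members (15.2%), where all genes had 8.96%. Its 2 arrays lay below both DMSO arrays for 7 members and above them for 10, where all genes had 17.7% and 24.9%, and the member median was -0.0056.

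**Figure D1:**
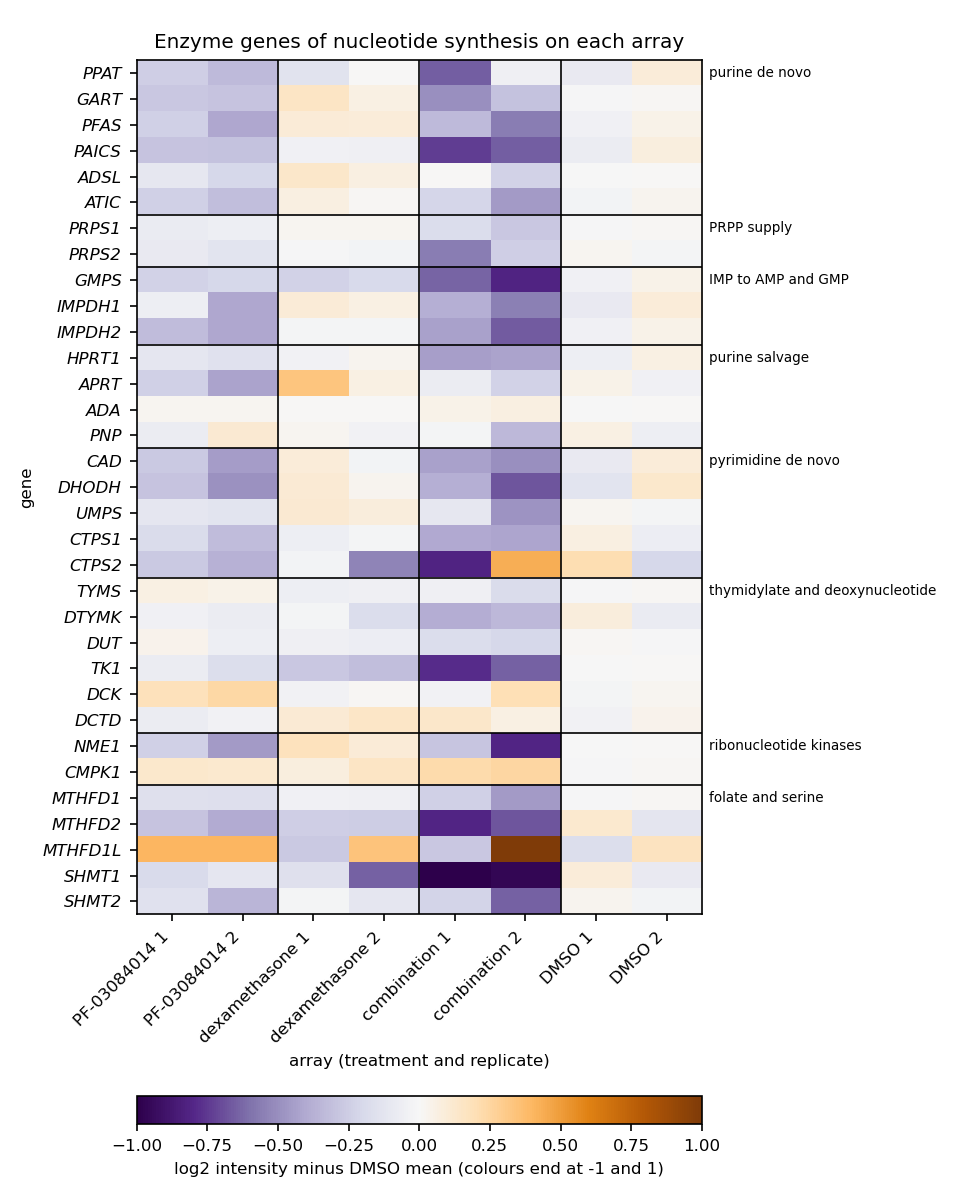
Log2 intensity of each of the 33 enzyme genes on each of the 8 arrays, minus the mean of the 2 DMSO arrays of that gene, with genes as rows grouped by role and arrays as columns. The PF-03084014 columns lie below both DMSO arrays for 25 and 26 genes, with member medians of -0.14 and -0.21. The combination columns do so for 28 and 26 genes, with medians of -0.33 and -0.42. The dexamethasone columns do so for 10 and 11 genes, with medians of -0.019 and 0.0039. Of all 19775 genes, 5688 and 6014 lay below both DMSO arrays under PF-03084014. The all-gene counts were 6742 and 6517 under the combination and 5670 and 5583 under dexamethasone.

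The promoters of 30 members were available as 44 windows of 300 bases, each from 250 bases before a transcription start to 50 after it (RefSeq, GRCh38.p14). They were searched on both strands for 5 letter strings. The E-box CACGTG, which reads the same on both strands and is the core bound by MYC and other E-box factors, was in 8 of the 30 genes (26.7%), against 10.9% of the 15384 measured genes with a window. Per window the shares were 22.7% of the member windows and 7.26% of all 35116 windows. PPAT and PAICS count as 2 of these genes and windows but hold the same single E-box, in the stretch their windows share. Of the genes with an E-box, PAICS and MTHFD1 fell under the combination. The others, ATIC, DCK, DHODH, MTHFD1L, NME1 and PPAT, did not pass the test there. TTTGGCGC, an E2F-type string, was in 3 genes (10%, DCK, DUT and GART), against 1.03% of measured genes. TTTCCCGC, also of E2F type, was in 3 (DUT, PRPS2 and TYMS), against 2.68%. The RBPJ string GTGGGAA was in 2 (DUT and HPRT1), against 7.97%. The palindrome bound by NRF1 was in 1 (MTHFD1, where it is the first run of capitals in the window printed), against 2.04%. A match is a description of letters and shows no binding. MYC RNA itself was 3791 and 3558 under PF-03084014, 4916 and 4628 under dexamethasone, 4145 and 3572 under the combination and 4878 and 4256 in DMSO, and did not pass limma's test in any of the 3 comparisons with DMSO.

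The windows of 5 genes are printed because their genes lie in different role groups and hold these strings, which are set in capitals. PAICS starts at base 56435752 of chromosome 4 on the plus strand, and PPAT, the first committed enzyme of the same route, starts 137 bases away on the minus strand, so that their windows share 236 bases. They are given 5′ to 3′ in the direction of the gene, and all 5 genes lie on the plus strand.
PAICS, chr4:56435502-56435801: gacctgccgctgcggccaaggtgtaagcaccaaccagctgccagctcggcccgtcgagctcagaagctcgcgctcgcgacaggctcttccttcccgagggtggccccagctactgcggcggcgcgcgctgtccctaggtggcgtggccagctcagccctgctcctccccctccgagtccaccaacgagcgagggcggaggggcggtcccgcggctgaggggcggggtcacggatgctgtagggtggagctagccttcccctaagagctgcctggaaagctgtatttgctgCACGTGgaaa
MTHFD1, chr14:64388103-64388402: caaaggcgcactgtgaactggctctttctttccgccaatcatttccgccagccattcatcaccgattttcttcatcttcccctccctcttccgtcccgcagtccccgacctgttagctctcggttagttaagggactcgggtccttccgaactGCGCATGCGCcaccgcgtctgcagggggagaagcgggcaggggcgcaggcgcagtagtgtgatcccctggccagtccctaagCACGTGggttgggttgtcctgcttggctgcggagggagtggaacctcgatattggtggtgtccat
DUT, chr15:48331947-48332246: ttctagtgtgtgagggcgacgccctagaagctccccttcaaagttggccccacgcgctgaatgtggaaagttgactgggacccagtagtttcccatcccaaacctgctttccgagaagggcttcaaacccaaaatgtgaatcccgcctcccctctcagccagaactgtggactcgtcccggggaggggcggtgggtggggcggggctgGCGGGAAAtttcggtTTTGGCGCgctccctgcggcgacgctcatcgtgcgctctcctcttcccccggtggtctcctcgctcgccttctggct
DHODH, chr16:72008494-72008793: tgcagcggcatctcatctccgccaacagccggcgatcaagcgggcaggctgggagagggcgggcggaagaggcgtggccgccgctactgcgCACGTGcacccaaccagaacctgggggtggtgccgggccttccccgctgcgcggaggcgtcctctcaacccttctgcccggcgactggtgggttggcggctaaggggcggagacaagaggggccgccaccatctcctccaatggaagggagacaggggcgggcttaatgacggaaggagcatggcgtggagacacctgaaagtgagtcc
NME1, chr17:51153309-51153608: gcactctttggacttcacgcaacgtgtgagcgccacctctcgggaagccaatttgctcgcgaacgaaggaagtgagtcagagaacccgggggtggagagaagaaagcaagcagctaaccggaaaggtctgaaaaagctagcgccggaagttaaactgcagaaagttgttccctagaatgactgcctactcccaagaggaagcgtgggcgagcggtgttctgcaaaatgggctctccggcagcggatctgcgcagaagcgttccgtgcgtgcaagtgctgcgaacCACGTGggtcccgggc
Positions are counted with the start base as the first. The E-box began at position 41 in PAICS, 35 in NME1, -15 in MTHFD1 and -159 in DHODH. In DUT the 2 E2F-type strings began at positions -42 and -27, and the first of them lies on the opposite strand. In MTHFD1 the NRF1-type string began at position -97.

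Of the 6 enzymes of purine synthesis de novo, PAICS, GART and PFAS fell under the combination, where the median was -0.37. Under PF-03084014 all 6 had both arrays below both DMSO arrays, with a median log2 difference of -0.29 and no gene past the test. That array order was found in 19.7% of all genes and 24.4% of genes at or above the median mean. Under dexamethasone the median was 0.064.

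PAICS, which joins carbon dioxide and aspartate to the growing purine ring, had the largest difference of these 6. Its intensity was 5835 and 5818 under PF-03084014, 6938 and 6923 under dexamethasone, 4301 and 4560 under the combination, and 6789 and 7548 in DMSO. The combination arrays were the lowest, the PF-03084014 arrays came next, and the dexamethasone arrays overlapped DMSO. PAICS fell by 0.69 ± 0.060 under the combination in the limma fit (adjusted p = 0.00456), which is 38.1% below DMSO. Under PF-03084014 alone the difference was -0.30 ± 0.060 (limma adjusted p = 0.117).

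GART, which carries out 3 separate steps of ring assembly and uses formyl folate, read 2137 and 2117 under PF-03084014, 2879 and 2706 under dexamethasone, 1842 and 2108 under the combination, and 2572 and 2615 in DMSO. Both dexamethasone arrays lay above DMSO and both combination arrays below every other array. It fell by 0.40 ± 0.072 under the combination (limma adjusted p = 0.0281), beside -0.29 ± 0.072 under PF-03084014 (adjusted p = 0.176). PFAS, a glutamine-using amidotransferase of the route, read 1966 and 1745 under PF-03084014, 2473 and 2459 under dexamethasone, 1839 and 1576 under the combination, and 2250 and 2385 in DMSO. Its combination and PF-03084014 arrays overlapped each other and lay below DMSO. It fell by 0.44 ± 0.094 under the combination (limma adjusted p = 0.0415).

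The other 3 enzymes did not pass the test. PPAT, the committed first step, differed by -0.35 ± 0.20 under the combination, and its 2 combination arrays, at 923 and 1396, straddled the lower DMSO array. Its second probe set differed by -1.53 ± 0.32, at 475 and 282 under the combination against 1028 and 1084 in DMSO. That difference did not pass the limma test over all probe sets (adjusted p = 0.0528). ATIC, which completes IMP, differed by -0.34 ± 0.085 (limma adjusted p = 0.0661) with both combination arrays below DMSO. ADSL, which acts both in this route and in adenine nucleotide synthesis, differed by -0.11 ± 0.086 with overlapping arrays.

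Phosphoribosyl pyrophosphate is supplied by PRPS1 and PRPS2, and both read lowest under the combination. PRPS1 read 4315 and 4372 under PF-03084014, 4620 and 4631 under dexamethasone, 4030 and 3757 under the combination, and 4527 and 4592 in DMSO. The groups did not overlap, with dexamethasone highest. It fell by 0.23 ± 0.042 under the combination (limma adjusted p = 0.0297). PRPS2 read 3068 and 2985 under PF-03084014, 3245 and 3209 under dexamethasone, 2219 and 2758 under the combination, and 3311 and 3231 in DMSO. Its combination replicates lay far apart but below all other arrays, and the difference of -0.40 ± 0.10 did not pass the limma test (adjusted p = 0.0656).

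On the guanine branch, GMPS and IMPDH2 fell under the combination and IMPDH1 did not pass the test. GMPS, which aminates xanthosine monophosphate to guanosine monophosphate, read 3097 and 3147 under PF-03084014, 3109 and 3174 under dexamethasone, 2336 and 2062 under the combination, and 3538 and 3740 in DMSO. The single compounds overlapped each other and lay below DMSO, and the combination lay below both. The fall under the combination was 0.73 ± 0.067 (limma adjusted p = 0.00527), to 39.7% below DMSO. Beside it stood -0.22 ± 0.067 for PF-03084014 (limma adjusted p = 0.249) and -0.21 ± 0.067 for dexamethasone (adjusted p = 0.445). The second GMPS probe set differed less, by -0.33 ± 0.096 under the combination, without passing the test. That probe set stood at 0.0015 under PF-03084014 and -0.018 under dexamethasone. IMPDH2, the isoform of the rate-limiting dehydrogenase that dividing lymphocytes use most, read 5481 and 5159 under PF-03084014, 6775 and 6756 under dexamethasone, 5087 and 4335 under the combination, and 6654 and 7081 in DMSO. Dexamethasone overlapped DMSO here. IMPDH2 fell by 0.55 ± 0.085 under the combination (limma adjusted p = 0.0183), and PF-03084014 alone stood at -0.37 ± 0.085 (adjusted p = 0.153). IMPDH1 differed by -0.46 ± 0.14 under the combination (limma adjusted p = 0.0942).

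Of the 4 purine salvage enzymes, HPRT1 alone passed the test. HPRT1, which recovers hypoxanthine and guanine and activates thiopurines, read 7184 and 7040 under PF-03084014, 7609 and 7950 under dexamethasone, 5730 and 5799 under the combination, and 7474 and 8107 in DMSO. The combination arrays were nearly equal and well below all others. The fall was 0.43 ± 0.051 (limma adjusted p = 0.00910). APRT, which recovers adenine, read 2131 and 1862 under PF-03084014, 3158 and 2611 under dexamethasone, 2380 and 2135 under the combination, and 2588 and 2430 in DMSO, so that dexamethasone lay above DMSO and the other treatments below it. None of the APRT differences passed the test. ADA, the adenosine deaminase whose loss is toxic to T cells, stayed between 10258 and 10764 over all 8 arrays, and its difference of 0.055 ± 0.031 under the combination did not pass the test. PNP, the purine nucleoside phosphorylase, differed by -0.18 ± 0.12 with overlapping arrays.

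**Figure D2:**
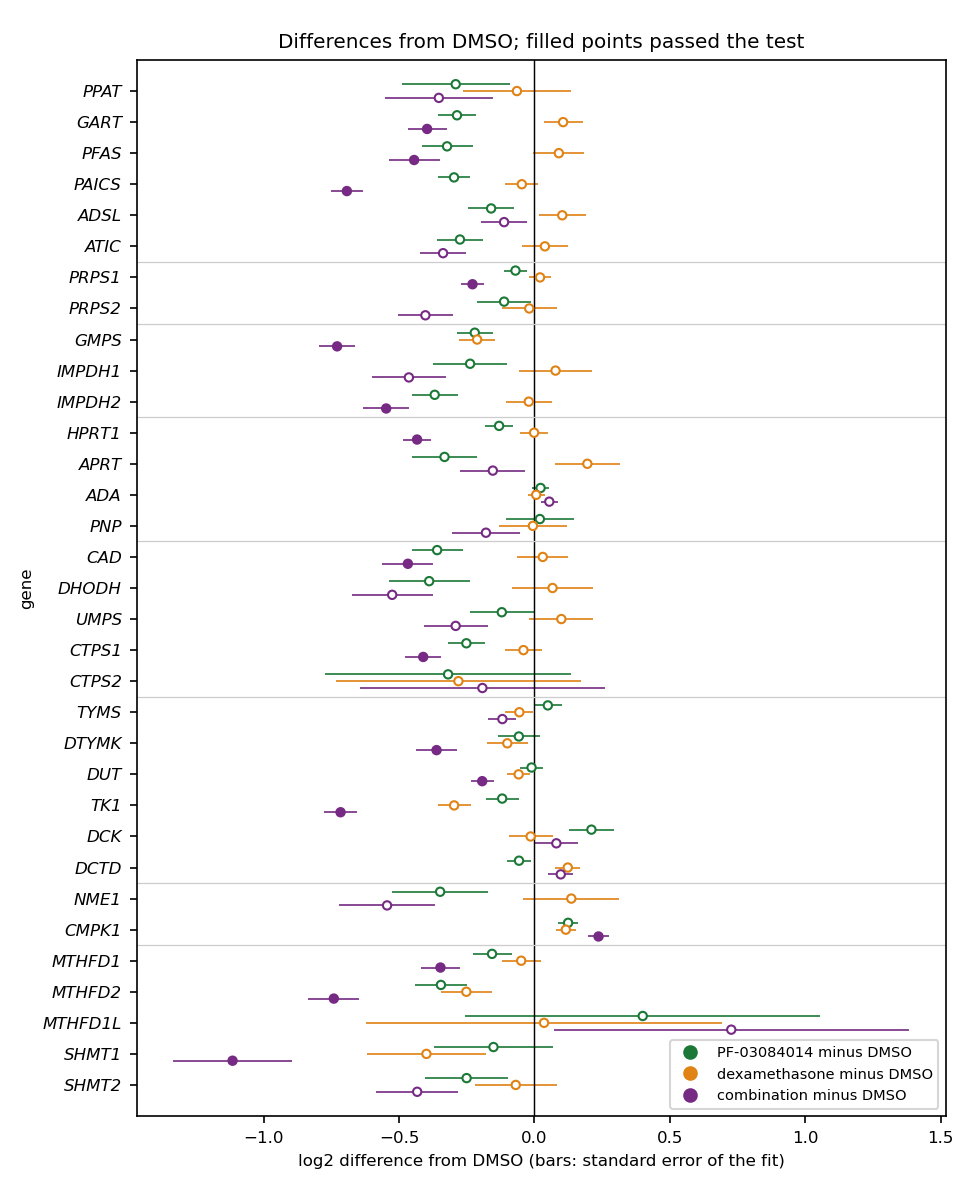
Log2 difference from DMSO of each of the 33 enzyme genes under PF-03084014, dexamethasone and the combination, with bars for the standard error of the limma fit and filled points for genes that passed the test at an adjusted p under 0.05. The 16 filled points all belong to the combination, 15 of them left of 0 and CMPK1 right of it.

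Pyrimidine synthesis de novo had the lowest PF-03084014 median of the 8 role groups, at -0.32, with purine synthesis next at -0.29. That -0.32 is the difference of the dim CTPS2, which carries a standard error of 0.45. Both PF-03084014 arrays lay below DMSO for all 5 genes, as they did for 19.7% of all genes and 24.4% of genes at or above the median mean. No gene passed the test. Under the combination the median was -0.41 and CAD and CTPS1 fell. CAD, the fused enzyme of the first 3 steps, read 674 and 594 under PF-03084014, 862 and 798 under dexamethasone, 599 and 575 under the combination, and 765 and 862 in DMSO. Its combination and PF-03084014 arrays overlapped, as did its dexamethasone and DMSO arrays. CAD fell by 0.47 ± 0.094 under the combination (limma adjusted p = 0.0363) and stood at -0.36 ± 0.094 under PF-03084014 (adjusted p = 0.193).

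CTPS1, the cytidine triphosphate synthase on which proliferating lymphocytes rely, read 1840 and 1672 under PF-03084014, 2005 and 2055 under dexamethasone, 1581 and 1559 under the combination, and 2188 and 1992 in DMSO. Its combination arrays were the lowest of all. It fell by 0.41 ± 0.067 (limma adjusted p = 0.0209), beside -0.25 ± 0.067 under PF-03084014 (adjusted p = 0.198). DHODH, the mitochondrial dehydrogenase of the route, read 329 and 287 under PF-03084014, 432 and 410 under dexamethasone, 310 and 252 under the combination, and 368 and 439 in DMSO. Although both combination arrays lay below DMSO, the difference of -0.53 ± 0.15 did not pass the limma test (adjusted p = 0.0882). UMPS, the last step to uridine monophosphate, differed by -0.29 ± 0.12 under the combination, and the dim CTPS2 by -0.19 ± 0.45, neither past the test.

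**Figure D3:**
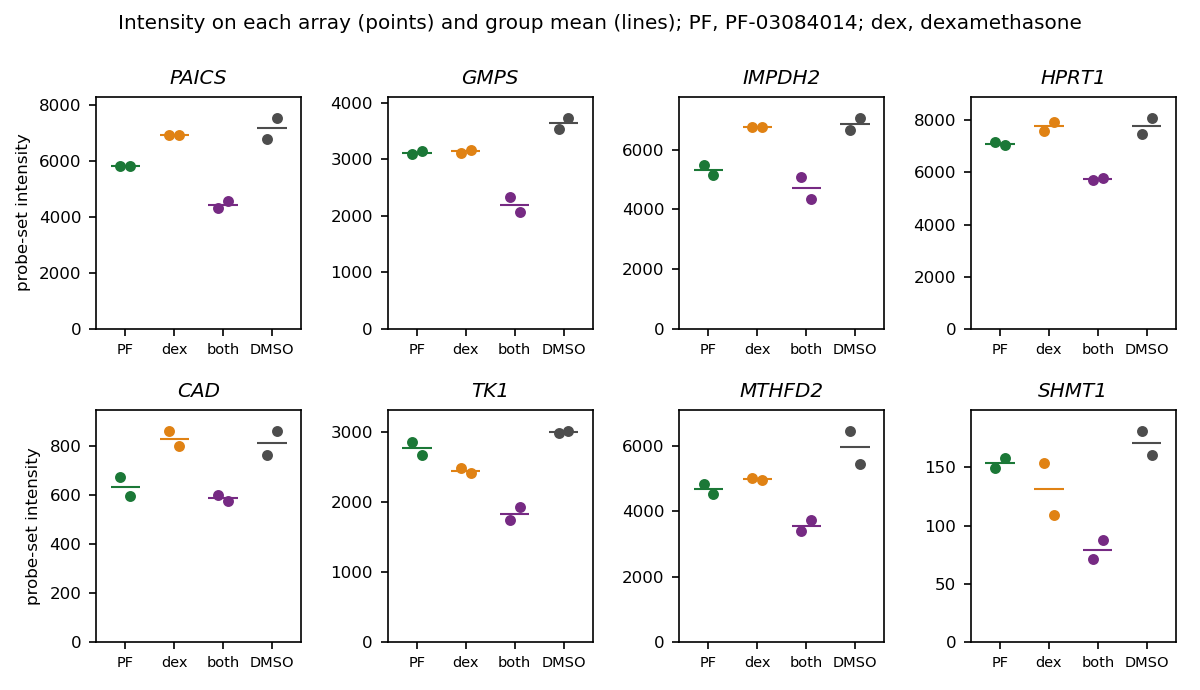
Probe-set intensity on each array for 8 of the enzyme genes, with the 4 treatments along the horizontal axis, points for the 2 arrays of a treatment, lines for their mean and a linear axis that starts at 0. PAICS, at 4301 and 4560 under the combination against 6789 and 7548 in DMSO, shows the lower combination arrays.

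Thymidylate and deoxynucleotide enzymes differed among themselves: TK1, DTYMK and DUT fell under the combination, and TYMS, DCK and DCTD did not pass the test. TK1, the cytosolic thymidine kinase that is made mainly in S phase, read 2863 and 2683 under PF-03084014, 2487 and 2415 under dexamethasone, 1743 and 1927 under the combination, and 2997 and 3023 in DMSO. The 4 groups did not overlap, in the order combination, dexamethasone, PF-03084014 and DMSO from low to high. TK1 fell by 0.72 ± 0.061 under the combination (limma adjusted p = 0.00441), to 39.1% below DMSO, and the dexamethasone difference of -0.30 ± 0.061 did not pass (adjusted p = 0.262).

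DTYMK, which phosphorylates thymidylate, read 3234 and 3159 under PF-03084014, 3276 and 2939 under dexamethasone, 2548 and 2632 under the combination, and 3521 and 3143 in DMSO. The single compounds overlapped DMSO. It fell by 0.36 ± 0.077 under the combination (limma adjusted p = 0.0415). DUT, which removes deoxyuridine triphosphate and so yields the substrate of thymidylate synthase, read 12687 and 11924 under PF-03084014, 11972 and 11829 under dexamethasone, 10955 and 10726 under the combination, and 12494 and 12288 in DMSO. The fall of 0.19 ± 0.043, on the brightest probe set, was the smallest among the called members (limma adjusted p = 0.0478). The further DUT probe sets differed by -0.35 ± 0.093 and -0.60 ± 0.081. TYMS, the thymidylate synthase and target of fluoropyrimidines, read 15119 and 13835 under the combination against 15545 and 15856 in DMSO, a difference of -0.12 ± 0.052 that did not pass the test. Its second probe set stood at -0.33 ± 0.094, also not past the test. DCK, which activates the nucleoside analogues cytarabine and nelarabine's product, had both PF-03084014 arrays above DMSO, at 7049 and 7316 against 6112 and 6302, and its difference of 0.21 ± 0.082 did not pass limma's test (adjusted p = 0.367). DCTD, the deoxycytidylate deaminase, stood at 0.097 ± 0.046 under the combination, also not past the test.

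CMPK1, which phosphorylates uridine and cytidine monophosphates, was the 1 member that rose. It read 5163 and 5154 under PF-03084014, 4993 and 5268 under dexamethasone, 5536 and 5617 under the combination, and 4695 and 4771 in DMSO. Every treated array lay above both DMSO arrays and the combination arrays were highest. The rise was 0.24 ± 0.038 (limma adjusted p = 0.0198). NME1, a nucleoside diphosphate kinase, read 5130 and 4408 under PF-03084014, 6827 and 6483 under dexamethasone, 4974 and 3464 under the combination, and 6026 and 6081 in DMSO. Its combination replicates were far apart, and the difference of -0.54 ± 0.18 did not pass the limma test (adjusted p = 0.118).

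In folate and serine metabolism MTHFD2, MTHFD1 and SHMT1 fell under the combination, where the median of the 5 genes was -0.43. MTHFD2, the mitochondrial methylene-folate dehydrogenase, read 4845 and 4521 under PF-03084014, 5012 and 4977 under dexamethasone, 3400 and 3724 under the combination, and 6473 and 5462 in DMSO. The groups stood apart in the order combination, PF-03084014, dexamethasone and DMSO from low to high. MTHFD2 fell by 0.74 ± 0.094 under the combination (limma adjusted p = 0.0111), to 40.2% below DMSO, beside -0.35 ± 0.094 for PF-03084014 (adjusted p = 0.209) and -0.25 ± 0.094 for dexamethasone (adjusted p = 0.535).

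MTHFD1, the cytosolic enzyme that interconverts folate carbon units and yields formyl folate for purines, read 4176 and 4173 under PF-03084014, 4512 and 4483 under dexamethasone, 3942 and 3395 under the combination, and 4606 and 4700 in DMSO. It had the same order of groups as MTHFD2 and fell by 0.35 ± 0.072 under the combination (limma adjusted p = 0.0391). SHMT1, the cytosolic serine hydroxymethyltransferase, was much dimmer, at 150 and 158 under PF-03084014, 154 and 109 under dexamethasone, 71.1 and 87.7 under the combination, and 182 and 161 in DMSO. It fell by 1.11 ± 0.22 (limma adjusted p = 0.0341), to 53.8% below DMSO, the largest fall among the members, but its second probe set differed by 1.12 in the other direction without passing the test. SHMT2, the mitochondrial form, differed by -0.43 ± 0.15 with both combination arrays below DMSO (limma adjusted p = 0.138). Its further probe sets stood at -0.57 ± 0.14 and -0.66 ± 0.11. Only the dimmer of these, at -0.66, passed the limma test over all probe sets (adjusted p = 0.0325, beside 0.0828). MTHFD1L had no usable difference, since it read 28.8 on one combination array and 115 on the other.

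**Figure D4:**
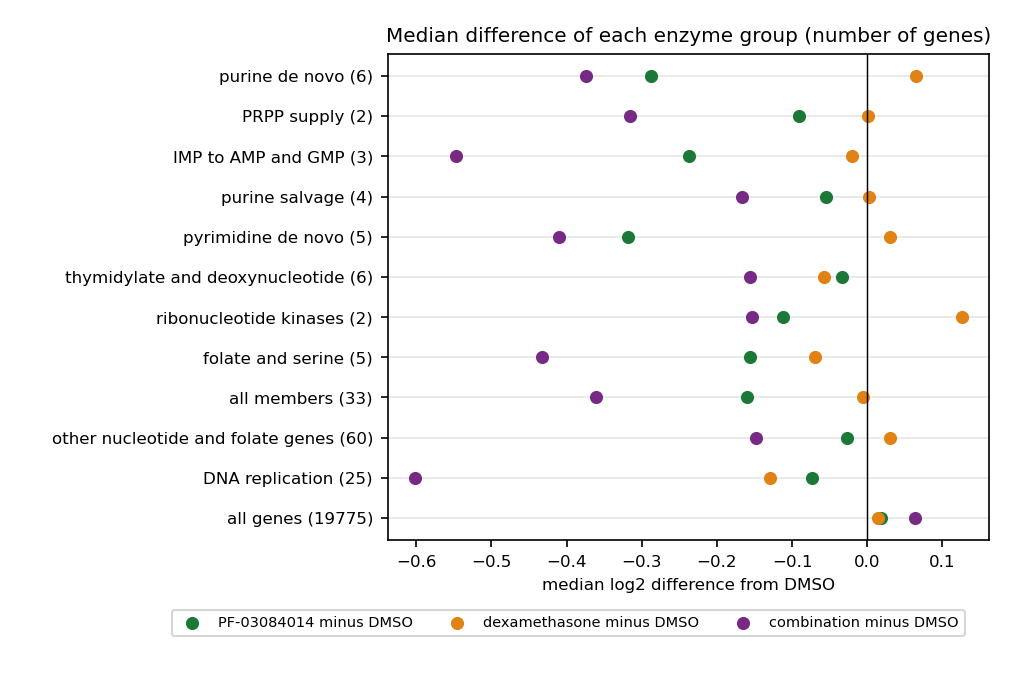
Median log2 difference from DMSO over the genes of each role group, over all 33 members, over 60 other genes of nucleotide and folate metabolism, over 25 DNA replication genes and over all 19775 genes, with 1 point per treatment. The combination median lies below the PF-03084014 median in each of the 8 role groups, and all-gene medians lie between 0.014 and 0.063.

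Set against each single compound, the combination was lower mainly against dexamethasone. Against dexamethasone 11 members fell and none rose, over a background of 7.26% of genes called, 3.99% lower and 3.27% higher, and of 7.17% lower among genes at or above the median mean. The 11 were GART, PFAS, PAICS, PRPS1, GMPS, IMPDH2, HPRT1, CAD, CTPS1, TK1 and MTHFD2, and the member median was -0.37 beside 0.040 over all genes. Both combination arrays lay below both dexamethasone arrays for 24 members and above for 2, where all genes had 23.4% and 27.8%. Among genes at or above the median mean 35.1% lay below, and their median was -0.030. The largest of the 11 differences was that of PAICS, at -0.65 ± 0.060 (limma adjusted p = 0.0130).

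Against PF-03084014 3 members fell, PAICS by 0.40 ± 0.060, GMPS by 0.51 ± 0.067 and TK1 by 0.60 ± 0.061, with limma adjusted p of 0.0421, 0.0312 and 0.0203 in that order. The background was 2.87% of genes called, 1.1% higher and 1.77% lower, or 3.22% among genes at or above the median mean, and the member median was -0.17 beside 0.027 over all genes. For 15 members both combination arrays lay below both PF-03084014 arrays and for 4 above, where all genes had 20.1% and 23.2%. Among genes at or above the median mean 29.3% lay below, and their median was -0.024. The interaction, which is the combination minus PF-03084014 minus dexamethasone plus DMSO, called 0 members and 0% of all genes in limma, with 5 members (15.2%) and 1798 genes (9.09%) at an unadjusted p under 0.05. The member median was -0.14, beside -0.070 over the genes at or above the median mean. For PAICS the interaction was -0.35 ± 0.085 (limma adjusted p = 0.387) and for GMPS -0.30 ± 0.095 (adjusted p = 0.470), so a departure from the sum of the single effects was not detectable with 2 arrays a group.

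These counts changed when single arrays were left out. Leaving out an array from a group outside a comparison does not alter the differences of that comparison. It alters only the spread estimated over all groups and the degrees of freedom. The 16 calls of the combination against DMSO became 5 and 6 without DMSO replicate 1 or 2, 7 and 6 without PF-03084014 replicate 1 or 2, 6 and 7 without dexamethasone replicate 1 or 2, 24 without combination replicate 1 and 12 without combination replicate 2. The share of all genes called moved with them, at 31.4% without combination replicate 1, 10.7% without combination replicate 2, 4.19% and 4.40% without a DMSO array, and 5.97% to 6.48% without a PF-03084014 or dexamethasone array, beside 12% with all arrays. The 11 calls against dexamethasone became 0 without either dexamethasone array, 1 without either PF-03084014 array, 4 without either DMSO array and 21 without combination replicate 1. All genes called there were 29.4% without combination replicate 1, 3.42% and 3.44% without a DMSO array, 1.77% and 1.93% without a PF-03084014 array, and 0% and 0.116% without a dexamethasone array. The 3 calls against PF-03084014 became 0 without any one DMSO, PF-03084014 or dexamethasone array, where at most 0.627% of all genes were called, and 10 without combination replicate 1, where 19.8% were. GMPS, HPRT1 and TK1 fell against DMSO under all 20 other settings tried, and PAICS and MTHFD2 under 19 of them. DTYMK was lost under 16, PFAS under 14, and DUT and MTHFD1 under 13 each.

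Several probe sets were available for 25 of the 33 members. Of the 17 members with more than 1 probe set of mean intensity at least 200, 14 had the same sign under the combination in all of them, and in 9 every further probe set was lower than the one used. Of the 55 probe sets of that brightness, 47 were below 0 under the combination, 45 under PF-03084014 and 28 under dexamethasone. Among genes at or above the median mean, each by 1 probe set, 49.5%, 43.1% and 39.8% were below 0 in that order. Probe sets of the same gene are not independent, and 14 of the 55 passed the test as lower under the combination. The second probe set of PAICS differed by -1.28 and that of TK1 by -1.02. Those of GMPS and PRPS1 were less low than the ones used, at -0.33 and -0.15. The exceptions in sign were PAICS, GART and DCTD. The dimmest probe set of PAICS stood at 0.70 without passing the test, GART had 1 probe set at 0.17, and DCTD had others at -0.064 and -0.29 beside the one used at 0.097.

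**Figure D5:**
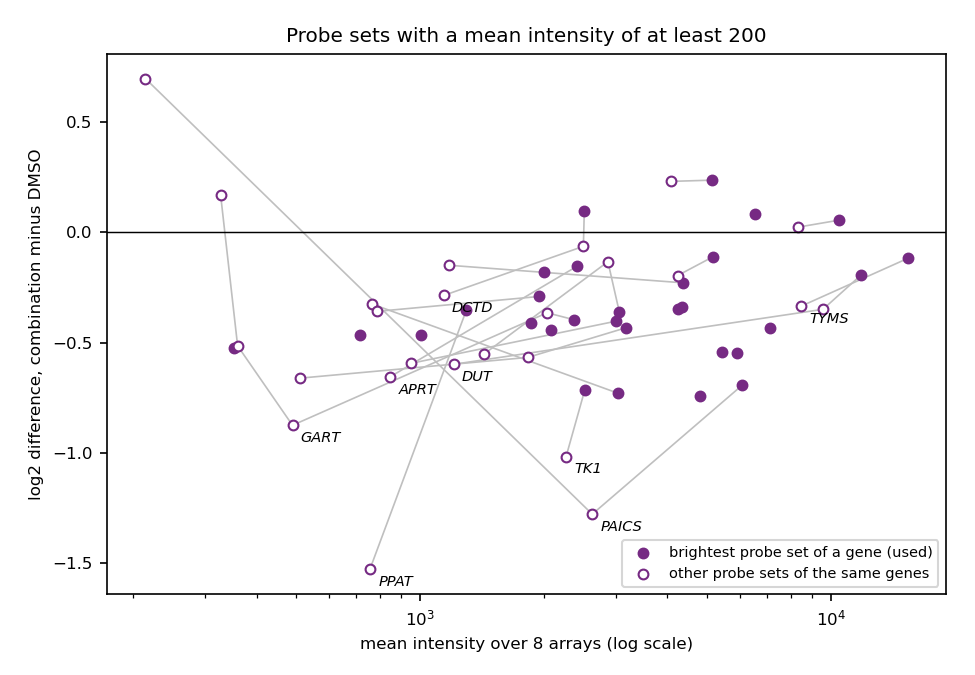
Log2 difference of the combination from DMSO for member probe sets with a mean intensity of at least 200, against that mean on a log axis. Filled points are the probe sets used, open points are the further ones, and grey lines join probe sets of 1 gene. Of the 55 points 47 lie below 0, and the dimmest point, at 0.70, is the odd probe set of PAICS. Among genes at or above the median mean, each by 1 probe set, 49.5% lay below 0.

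Among 60 other measured genes of nucleotide and folate metabolism, 13 fell and 4 rose under the combination, 43 did not pass the test and the median was -0.15. The background under the combination was 5.54% of all genes lower and 6.43% higher, with 9.81% lower among genes at or above the median mean. No gene of this list was called for PF-03084014 or dexamethasone alone. The falls included the serine synthesis enzymes PHGDH and PSAT1, which supply the serine that SHMT1 and SHMT2 use. PHGDH read 4067 and 4075 under PF-03084014, 4267 and 4189 under dexamethasone, 3183 and 2807 under the combination, and 5156 and 4952 in DMSO, and fell by 0.76 ± 0.065 under the combination (limma adjusted p = 0.00445). PSAT1 fell by 1.13 ± 0.17 (limma adjusted p = 0.0172), while PSPH, the last enzyme of serine synthesis, stood at -0.67 ± 0.16 and did not pass (adjusted p = 0.0620). All 3 had both combination arrays below both DMSO arrays.

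NME4, ADK, CMPK2 and GLDC followed PSAT1 as the largest falls of that list, at -1.06, -0.95, -0.80 and -0.79. They are a mitochondrial nucleoside diphosphate kinase, adenosine kinase, a mitochondrial nucleotide kinase and the glycine decarboxylase. RRM2, the regulated subunit of ribonucleotide reductase, fell by 0.47 ± 0.053 (limma adjusted p = 0.00826), and RRM1, its partner, stood at -0.25 ± 0.060 (adjusted p = 0.0548). The rises were those of TK2, at 0.71 ± 0.058, RRM2B, at 0.50 ± 0.10, NT5C2, at 0.32 ± 0.046, and AK3, at 0.24 ± 0.041. TK2 and RRM2B are the mitochondrial thymidine kinase and the p53-inducible reductase subunit that works outside S phase, and NT5C2 is a nucleotidase that inactivates thiopurine nucleotides. TK2 read 684 and 678 under the combination against 421 and 412 in DMSO, the opposite direction to TK1.

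DNA replication genes were lower under the combination as well. Of 25 such genes 19 fell and none rose under the combination, with a median of -0.60, while none was called under PF-03084014 (median -0.073) or dexamethasone (median -0.13). Under the combination 5.54% of all genes fell and 6.43% rose, and 9.81% of genes at or above the median mean fell. POLD1, GINS2, CDC6, GINS4 and POLA2 had the largest falls, at -1.06, -0.97, -0.90, -0.77 and -0.76. The summed intensity of the list was 69446 to 75627 under the combination, 95486 to 95804 under PF-03084014, 91877 to 93126 under dexamethasone and 98361 to 100706 in DMSO. PCNA stood at -0.13 ± 0.041 (limma adjusted p = 0.102). In the combination against PF-03084014, 14 of these 25 genes fell, with a median of -0.50. Of the 33 members 3 fell there, with a median of -0.17, and 1.77% of all genes did. The interaction median was -0.35, beside -0.14 for the members. Both dexamethasone arrays lay below both DMSO arrays for 22 of the 25 genes, beside 7 of the 33 members and 17.7% of all genes. Under PF-03084014 the medians of the role groups lay on both sides of the DNA replication median of -0.073: thymidylate and deoxynucleotide enzymes at -0.034 and purine salvage at -0.055 above it, and PRPP supply at -0.091, ribonucleotide kinases at -0.11, folate and serine at -0.16, the guanine branch at -0.24, purine synthesis at -0.29 and pyrimidine synthesis at -0.32 below it. The part of cell cycle state in the members' values was not tested.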

How the data were processed

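The file the authors deposited holds 1 linear intensity for each of 54675 probe sets on each of 8 arrays. Per the labels, cRNA was made from total RNA with an Affymetrix kit that amplifies from the 3 prime end. How the intensities were summarised, background-corrected and normalized is not stated in the labels or file headers at hand. GEO's platform annotation, with symbols updated through RefSeq, named 1 gene for 41097 probe sets, several for 1801, which were left out, and none for 11777. Intensities below 16 were set to 16 and taken as log2. Differences were fitted by limma (version 3.58.1, under R 4.3.3, with statmod 1.5.0) over all 8 arrays, with a mean per group, eBayes with an intensity trend, 4 residual degrees of freedom and two-sided tests, adjusted by Benjamini-Hochberg over all genes of a comparison. The fit was also tested on simulated data. The number of arrays limits the precision, with a median standard error of 0.177.

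The members and lists were chosen with earlier results of these data known, so counts over them are descriptions and no list test was run. Values of every array are given for members called against DMSO and for the member with the largest difference in each role group. From other lists, the called genes named are at most the 5 largest rises and falls, beside a set of always-named genes such as MYC and RRM2. The letter strings searched were narrowed from a longer set, and the promoters printed were picked, after the matches were seen. The intensity minimum of 200 for probe sets and the 8 genes plotted by array were also chosen after values were seen. Replicate numbers did not pair the samples: correlations of same-numbered deviations between groups were -0.011 to 0.080. Promoter windows were matched by symbol to RefSeq GRCh38.p14.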

Additional observations from a re-analysis of the deposited data

Results flagged for a closer look

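For GART and PRPS1, the arrays with and without dexamethasone lay in opposite order in the presence and absence of PF-03084014. With PF-03084014 present, both combination arrays lay below both PF-03084014 arrays (differences of -0.11 ± 0.072 for GART and -0.16 ± 0.042 for PRPS1). Without it, both dexamethasone arrays lay above both DMSO arrays (0.11 ± 0.072 for GART and 0.021 ± 0.042 for PRPS1). None of these 4 differences passed limma's test. The second probe set of PRPS1 stood at 0.072 ± 0.11 with PF-03084014 and 0.10 ± 0.11 without it, the same sign in both. The second probe set of GART stood at -0.14 ± 0.099 with PF-03084014 and 0.0074 ± 0.099 without it, where its dexamethasone and DMSO arrays overlapped. The GART probe sets ranked 3 to 5 by intensity had the same sign in both. They stood at -0.36, -0.20 and 0.34 with PF-03084014 and at -0.027, -0.30 and 0.13 without it. The interaction was -0.22 for GART and -0.18 for PRPS1, and neither passed limma's test (adjusted p = 0.589 and 0.489).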

How the results depend on the processing

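Beside the setting reported, 12 other settings were tried and each of the 8 arrays was left out in turn. With 2 arrays a group and 4 residual degrees of freedom, leaving out any array also leaves fewer degrees of freedom by construction, and the lone array is assumed to vary like the other groups. Intensity near the floor limits CTPS2, MTHFD1L and SHMT1.

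Member calls for PF-03084014 against DMSO became 2 with genes above the median mean only and 3 with array weights, where 4.38% and 3.70% of genes were called. For the combination against DMSO the 16 calls became 8 after arrays were shifted to 1 median, 10 with the mean of all probe sets, 9 with no intensity trend and 5 with array weights (5.39%, 8.04%, 9.83% and 4.36% of all genes), and 5 to 24 with an array left out. Against dexamethasone the 11 calls became 4 after the median shift, 7 with a floor of 64, 17 with a pseudocount of 16, 18 with genes above the median mean only, 6 with the mean of all probe sets, 5 with no intensity trend, 2 with array weights (1.79%, 5.44%, 9.65%, 24.3%, 3.98%, 4.62% and 1.05% of genes in that order) and 0 to 21 with an array left out. Against PF-03084014 the 3 calls became 1 after the median shift, 5 with the pseudocount, 6 with genes above the median mean only, 1 with the mean of all probe sets, 1 with no intensity trend, 0 with array weights (0.678%, 3.53%, 9.75%, 1.44%, 1.41% and 0.0910% of genes in that order) and 0 to 10 with an array left out. With the replicate number as a block, the calls were 12 for the combination against DMSO, 9 for the combination against dexamethasone, 1 for it against PF-03084014, and 0 elsewhere. The interaction reached 4 calls without combination replicate 1, where 5.15% of all genes were called, and 0 without any other array.

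The median shift moved the member median to -0.46 for the combination against DMSO, -0.49 against dexamethasone, -0.27 against PF-03084014 and -0.26 for the interaction, while the median of all genes became 0 for the combination against DMSO and -0.11 for the interaction. After the shift 7 of the 16 members called for the combination against DMSO still passed the test, and all 16 kept their direction. PFAS, PRPS1, IMPDH2, CAD, CTPS1, DTYMK, DUT, MTHFD1 and the risen CMPK1 no longer passed it. With an array left out the member median was -0.21 to -0.14 for PF-03084014 against DMSO, -0.036 to 0.026 for dexamethasone against DMSO, -0.42 to -0.33 for the combination against DMSO, -0.40 to -0.36 for the combination against dexamethasone, -0.23 to -0.10 for the combination against PF-03084014 and -0.19 to -0.11 for the interaction.

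Without combination replicate 2, 10 of the 16 members called against DMSO were still called, all 16 kept their direction, and PFAS, CAD, CTPS1, DTYMK, DUT and SHMT1 were lost. Leaving out the probe sets whose names mark shared sequence put a different and dimmer probe set in place for PAICS, at 0.70 against DMSO, 0.95 against dexamethasone and 0.98 against PF-03084014 for the combination, and for SHMT1, at 1.12 against DMSO. The mean of all probe sets gave 0.0023 for SHMT1 against DMSO. The causes of the other changes were not tested.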

Other observations

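SLC19A1, the reduced folate carrier that brings folates and methotrexate into cells, was picked out after its values were seen. It read 893 and 817 under PF-03084014, 1367 and 1380 under dexamethasone, 759 and 694 under the combination, and 1149 and 1133 in DMSO. The groups did not overlap, with the dexamethasone arrays above DMSO and the others below it. Under the combination it fell by 0.65 ± 0.066 against DMSO (limma adjusted p = 0.00621) and by 0.92 ± 0.066 against dexamethasone (adjusted p = 0.00842). The single compounds stood at -0.42 ± 0.066 for PF-03084014 (adjusted p = 0.0709) and 0.27 ± 0.066 for dexamethasone (adjusted p = 0.321).

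Marker lists of other cell types were also summed. The 5 B-lineage markers summed to 668 to 776 under the combination and 508 to 551 in DMSO, and CD79A rose by 0.86. Of these 5, however, 3 stood below 0 against DMSO, the median was -0.17, and 1 had a mean intensity of at least 200 in either group. The 5 myeloid markers summed to 319 to 381 under the combination and 528 to 574 in DMSO, and ITGAM fell by 1.72. The median of the 5 was -0.027, with 3 of them below 0. The 4 erythroid and megakaryocyte markers summed to 171 to 334 and 178 to 194 in those groups, with none called. The 7 epithelial and stromal markers, most of whose signal is VIM, summed to 8803 to 9932 and 9908 to 9927, with none called. The part of these genes in the enzyme values was not tested.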
